A study of Homo sapiens with 20 samples.

Results

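Autophagy delivers proteins and organelles to the lysosome inside closed membrane vesicles, the autophagosomes. Small ubiquitin-like proteins of the ATG8 family are joined to lipid on the growing membrane, and receptor proteins bind both an ATG8 protein and the marked cargo. The kinase ULK1 starts the process, and WIPI proteins read the lipid signal at the site where the membrane forms. The genes described here were 10 of this machinery, taken by symbol from the count tables of a study of HEL cells. They were the receptor genes SQSTM1, NBR1, OPTN and TAX1BP1, the ATG8 genes MAP1LC3B, GABARAP, GABARAPL1 and GABARAPL2, the kinase gene ULK1 and the WIPI gene WIPI1. All 10 were present once and passed the low-count filter in each of 3 tables, which listed 55093, 55093 and 34213 genes.

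HEL is a human erythroleukaemia line that carries the JAK2 V617F mutation, which all groups share. RNA was sequenced in 20 libraries, 2 for each of 10 groups. In the first table cells had been given 1 µM BCI, an inhibitor of the ERK phosphatases DUSP1 and DUSP6, for 4 h or 48 h, and were set against DMSO, the solvent, at the same times. In the second, cells had been given 10 µM of the RSK kinase inhibitor BI-D1870, alone or with 1 µM BCI, and were set against DMSO, all at 24 h. The third held cells that had persisted through culture with the JAK2 inhibitor fedratinib (FedP) or ruxolitinib (RuxP), and parental HEL cells. The headings of the later columns in the first table read 24h where the labels give 48 h, and the labels were followed. The persistent cells were grown with drug for an unstated time, and no source used here says whether they are clones or whether drug was present at harvest. Duplicates are not stated to be separate cultures, and p-values therefore reflect no more than the variation among these libraries, which may be technical.

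Libraries held 63916850 to 84452743 counts in the BCI table, 54141164 to 70128404 in the BI-D1870 table and 51799814 to 79755715 in the persistent table. The biological coefficient of variation, the spread between replicates beyond counting, was 13.3%, 5.01% and 26.9%, so the smallest changes could be called in the BI-D1870 table. All 9 erythroid and megakaryocytic markers checked were present in every library, among them GATA1 at 91.6 CPM or more. The summed level of 11 lymphoid, epithelial and stromal markers was at most 8.73 CPM in a library. In the BCI and BI-D1870 tables it came mostly from CD79A, and KRT5 was at 0. In the persistent table CD79A ran from 0.262 to 2.48 CPM and EPCAM reached 1.43 CPM. CPM are counts scaled by the TMM library size, and values marked log2 are log2 fold changes from edgeR. In bulk RNA, fewer cells of a kind and less RNA per cell cannot be told apart.

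The genes lie at these positions of GRCh38 in GENCODE 29, and all are protein-coding. SQSTM1 (ENSG00000161011) encodes p62, the receptor for ubiquitin-marked cargo that also binds KEAP1, and lies at chr5:179806398-179838078. NBR1 (ENSG00000188554, chr17:43170481-43211689) encodes a receptor built much like p62. OPTN (ENSG00000123240, chr10:13099449-13138308) and TAX1BP1 (ENSG00000106052, chr7:27739331-27844564) encode receptors that act on damaged mitochondria and bacteria, among other cargo. MAP1LC3B (ENSG00000140941, chr16:87383995-87404779) encodes LC3B, the ATG8 protein most used to mark autophagosomes. GABARAP (ENSG00000170296, chr17:7240014-7242770), GABARAPL1 (ENSG00000139112, chr12:10212458-10223130) and GABARAPL2 (ENSG00000034713, chr16:75566351-75577881) encode the GABARAP branch of that family. ULK1 (ENSG00000177169) lies at chr12:131894651-131923167 and WIPI1 (ENSG00000070540) at chr17:68420948-68457513.

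Promoters of the 4 genes with the largest rises under the inhibitors are shown, so that their sequence can be set beside their responses. Each is the RefSeq window of GRCh38.p14 from 250 bases before to 50 after a start, on the plus strand. For SQSTM1, which has 3 such windows, it is the one that holds the start of a principal GENCODE transcript. Capitals mark a match to a searched motif.
SQSTM1 (chr5:179820655-179820954): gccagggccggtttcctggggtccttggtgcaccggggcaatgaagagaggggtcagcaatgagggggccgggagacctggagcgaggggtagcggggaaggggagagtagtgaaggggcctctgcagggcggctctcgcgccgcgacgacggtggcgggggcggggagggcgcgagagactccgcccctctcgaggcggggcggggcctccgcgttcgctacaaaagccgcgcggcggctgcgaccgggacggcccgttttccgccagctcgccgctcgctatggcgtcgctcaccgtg
MAP1LC3B (chr16:87392086-87392385): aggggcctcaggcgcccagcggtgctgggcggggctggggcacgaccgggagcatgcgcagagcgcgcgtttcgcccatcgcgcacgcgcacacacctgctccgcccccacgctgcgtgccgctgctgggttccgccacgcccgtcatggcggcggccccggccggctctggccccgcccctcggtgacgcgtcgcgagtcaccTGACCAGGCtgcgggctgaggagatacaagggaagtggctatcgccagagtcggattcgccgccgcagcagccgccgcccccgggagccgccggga
GABARAPL1 (chr12:10212627-10212926): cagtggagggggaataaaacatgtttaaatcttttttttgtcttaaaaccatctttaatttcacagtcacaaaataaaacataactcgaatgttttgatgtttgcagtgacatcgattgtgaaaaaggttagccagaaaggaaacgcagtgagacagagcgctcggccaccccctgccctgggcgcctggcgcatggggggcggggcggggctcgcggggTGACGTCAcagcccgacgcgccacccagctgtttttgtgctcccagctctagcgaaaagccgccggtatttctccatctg
ULK1 (chr12:131894372-131894671): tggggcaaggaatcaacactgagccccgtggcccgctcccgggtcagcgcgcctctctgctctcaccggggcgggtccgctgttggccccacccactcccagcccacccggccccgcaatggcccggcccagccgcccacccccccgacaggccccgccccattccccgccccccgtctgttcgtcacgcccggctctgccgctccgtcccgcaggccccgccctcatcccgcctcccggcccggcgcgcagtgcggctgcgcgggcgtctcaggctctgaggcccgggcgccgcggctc
The motifs, searched on both strands, were the antioxidant response element core TGACNNNGC, the E-box CACGTG, the CLEAR core TCACGTGA that contains it, the heat shock pair GAANNTTC and the CCAAT-ATF core TGATGNAA. The cyclic AMP response element TGACGTCA was added after the GABARAPL1 window had been read. Of the 35116 RefSeq promoters, 13.3%, 7.26%, 0.98%, 6.77%, 3.62% and 1.85% held them, in that order. MAP1LC3B held TGACCAGGC, a match to the antioxidant core, from base -46, counted from the RefSeq start, and GABARAPL1 held the cyclic AMP element from base -30. The other matches were heat shock pairs in GABARAPL2 from base -219 and in 1 of 2 windows of TAX1BP1 from base -91. No searched motif was found in the 3 SQSTM1 windows or in those of GABARAP, WIPI1, ULK1, NBR1 and OPTN, which says only that these letters are not there. The MAP1LC3B window and the TAX1BP1 window with a match do not hold the start of a principal GENCODE transcript. The matches are descriptions of sequence and binding was not measured.

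**Figure D1:**
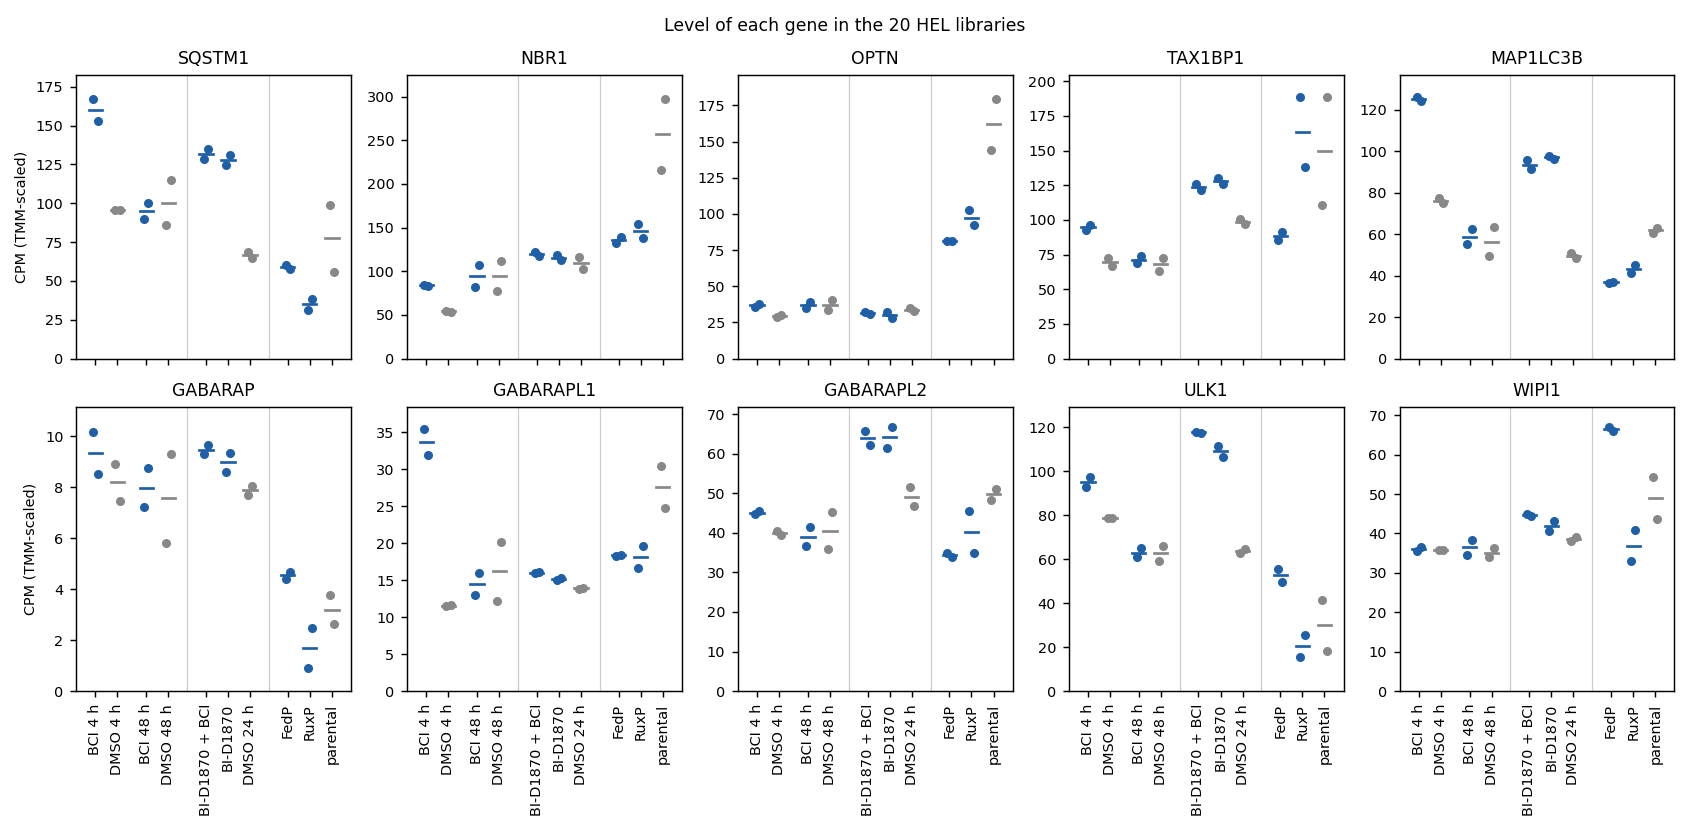
Level of each gene (CPM, linear axis from 0) in the 20 libraries, with points for libraries and lines for group means. Vertical lines separate the 3 tables, and treated or persistent groups (blue) stand left of their DMSO or parental controls (grey). GABARAPL1 stands at 35.4 and 31.9 CPM with BCI at 4 h, above every other library of the BCI table, and the parental pair is spread widely for SQSTM1, TAX1BP1 and ULK1.

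Levels of different genes were compared per kilobase of exon, the union of all annotated exons of a gene. The order depends on that length, which may differ from that of the transcripts present. By CPM alone SQSTM1 stood above MAP1LC3B in DMSO at 4 h, with 95.7 and 95.9 against 77.5 and 75.0 CPM. In DMSO at 4 h MAP1LC3B had the highest mean level, 14.4 CPM per kb, followed by GABARAPL2 with 13.2 and SQSTM1 with 12.5. The lowest were GABARAP with 3.62 and GABARAPL1 with 2.83 CPM per kb. With BCI at 4 h MAP1LC3B and SQSTM1 led with 23.6 and 20.9 CPM per kb, and GABARAPL1 stood above OPTN and GABARAP with 8.24. In each of these groups of 2 libraries the ranges of neighbours in the order did not overlap, except for WIPI1 and TAX1BP1 with BCI. Such ranges do not cover an error in the exon length. In DMSO at 24 h GABARAPL2 led with 16.2 CPM per kb, while SQSTM1 and ULK1, and GABARAP and GABARAPL1, overlapped. Parental cells of the third table had another order, led by OPTN with 31.5 and NBR1 with 30.6 CPM per kb, which overlapped. Genes listed there numbered 34213, against 55093 in each of the others, and the part of this in the order was not tested. The tables were normalised apart, so a level in one is not set against a level in another. Part of GABARAP's exon length, 30.5%, is shared with AC120057.2, a gene on the same strand with 0 counts in every library. On the opposite strand MRNIP shares 20.7% of SQSTM1's exon length and ARSG 24.3% of WIPI1's. The strand setting of the counting is not given in the sources used here, and the part of such overlaps in the levels was not tested. The near-copies MAP1LC3B2 and GABARAPL3 had at most 38 and 8 counts, against at least 2055 for MAP1LC3B and 708 for GABARAPL1.

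BCI for 4 h raised 5 of the 10 genes and lowered 0 (edgeR quasi-likelihood test, Benjamini-Hochberg adjusted p under 0.05). Of all 21908 genes tested, 4.80% were called higher and 5.94% lower. The largest rise was that of the ATG8 gene GABARAPL1, followed by the receptor gene SQSTM1 and the ATG8 gene MAP1LC3B, and the receptor genes NBR1 and TAX1BP1 rose as well. All 10 log2 fold changes were above 0, with a median of 0.38, against 0.02 over all genes tested.

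GABARAPL1 had 35.4 and 31.9 CPM with BCI, against 11.5 and 11.6 CPM in DMSO. It thus stood 2.91-fold higher, with both BCI libraries well above both DMSO libraries (log2 1.54, SE 0.210, adjusted p = 0.00191). SQSTM1 had 167 and 153 CPM with BCI, against 95.7 and 95.9 CPM in DMSO (log2 0.74, SE 0.127, adjusted p = 0.00626). MAP1LC3B had 126 and 124 CPM with BCI, against 77.5 and 75.0 CPM in DMSO (log2 0.72, SE 0.118, adjusted p = 0.00505). For both genes the groups did not overlap, and the rises were 1.67-fold and 1.64-fold. The remaining receptors moved less. NBR1 averaged 83.8 ± 0.895 CPM with BCI and 54.1 ± 0.419 CPM in DMSO (SD, n = 2 each, log2 0.63, SE 0.164, adjusted p = 0.0391). TAX1BP1 averaged 94.7 ± 2.44 CPM with BCI and 69.6 ± 3.84 CPM in DMSO (log2 0.44, SE 0.0924, adjusted p = 0.0154).

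The mitophagy receptor gene OPTN had 35.7 and 37.9 CPM with BCI, against 29.1 and 30.2 CPM in DMSO, and did not pass (log2 0.31, adjusted p = 0.117). The kinase gene ULK1 had 92.8 and 97.3 CPM with BCI, against 78.9 and 78.6 CPM in DMSO (log2 0.27, adjusted p = 0.0744). In both, the groups did not overlap. Both passed with only the groups of 4 h compared (adjusted p = 0.00237 for OPTN and 0.0011 for ULK1) and without either DMSO library of 48 h. Of the other ATG8 genes, GABARAP and GABARAPL2 had log2 values of 0.19 and 0.18 (adjusted p = 0.686 and 0.416). WIPI1 had 35.5 and 36.6 CPM with BCI, against 35.8 and 35.9 CPM in DMSO, a log2 of 0.01 with a 95% interval of -0.19 to 0.21. The GABARAP branch thus held both the largest fold change of the 10 genes and 2 that did not pass. With any 1 of the 4 libraries of 4 h left out, which leaves an arm of 1 library, 1 or 2 of the 5 calls held. GABARAPL1 passed with each of the 8 libraries of the table left out, at an adjusted p of at most 0.0369, and its log2 stayed between 1.47 and 1.62.

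At 48 h BCI called none of the 10 genes, and of all genes 0% were called higher and 0% lower, with 316 genes at an unadjusted p under 0.05 and 0 called by DESeq2. GABARAPL1 had 12.9 and 15.9 CPM with BCI, against 12.2 and 20.2 CPM in DMSO. SQSTM1 averaged 95.1 ± 7.02 CPM with BCI and 100.4 ± 20.5 CPM in DMSO (SD, n = 2 each). The BCI libraries of both genes lay within the range of the DMSO pair, which was wider than at 4 h. Log2 values of the 10 genes ran from -0.16 to 0.08. The 95% interval of GABARAPL1 at 48 h, -0.63 to 0.30, did not reach its 4 h value.

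The change in response between the times was tested as the BCI response at 48 h minus that at 4 h. It was called for 2 of the 10 genes, both lower, while 2.08% of all genes were called higher and 1.37% lower. GABARAPL1 differed by -1.71 on the log2 scale (SE 0.293, adjusted p = 0.0157), as it stood 2.91-fold over DMSO at 4 h and 0.892-fold at 48 h. SQSTM1 differed by -0.82 (SE 0.180, adjusted p = 0.041). MAP1LC3B, NBR1 and TAX1BP1 had differences of -0.66, -0.63 and -0.38 with adjusted p of 0.0699, 0.191 and 0.169. MAP1LC3B passed by DESeq2 (adjusted p = 0.0111), MAP1LC3B and NBR1 passed without the low-count filter (4.1e-04 and 7.0e-04), and all 3 passed without replicate 1 of DMSO at 48 h (0.00357, 0.0103 and 0.0449). Neither call held with 1 of the 4 libraries of 4 h left out, when adjusted p was 0.078 to 0.115 for GABARAPL1 and 0.128 to 0.21 for SQSTM1. SQSTM1 also lost its call without replicate 1 of BCI at 48 h (adjusted p = 0.102).

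DMSO cells themselves differed between the times. At 48 h against 4 h 1 of the 10 genes was higher and 2 were lower, while 13.5% of all genes were called higher and 13.2% lower. NBR1 had 77.8 and 111.4 CPM in DMSO at 48 h, against 54.3 and 53.8 CPM at 4 h (log2 0.81, SE 0.164, adjusted p = 0.00639). MAP1LC3B had 49.3 and 63.6 CPM at 48 h, against 77.5 and 75.0 CPM at 4 h (log2 -0.43, SE 0.118, adjusted p = 0.024). ULK1 had 59.3 and 65.9 CPM at 48 h, against 78.9 and 78.6 CPM at 4 h (log2 -0.33, SE 0.0840, adjusted p = 0.0178). The DMSO libraries are those of the BCI comparisons, and NBR1 with BCI at 4 h, at 84.4 and 83.1 CPM, lay within the range of DMSO cells at 48 h. Without either DMSO library of 4 h none of the 3 calls held, and the 2 falls also failed without replicate 1 of DMSO at 48 h (log2 -0.27 for both). MAP1LC3B also missed the threshold with only the groups compared (adjusted p = 0.0515).

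**Figure D2:**
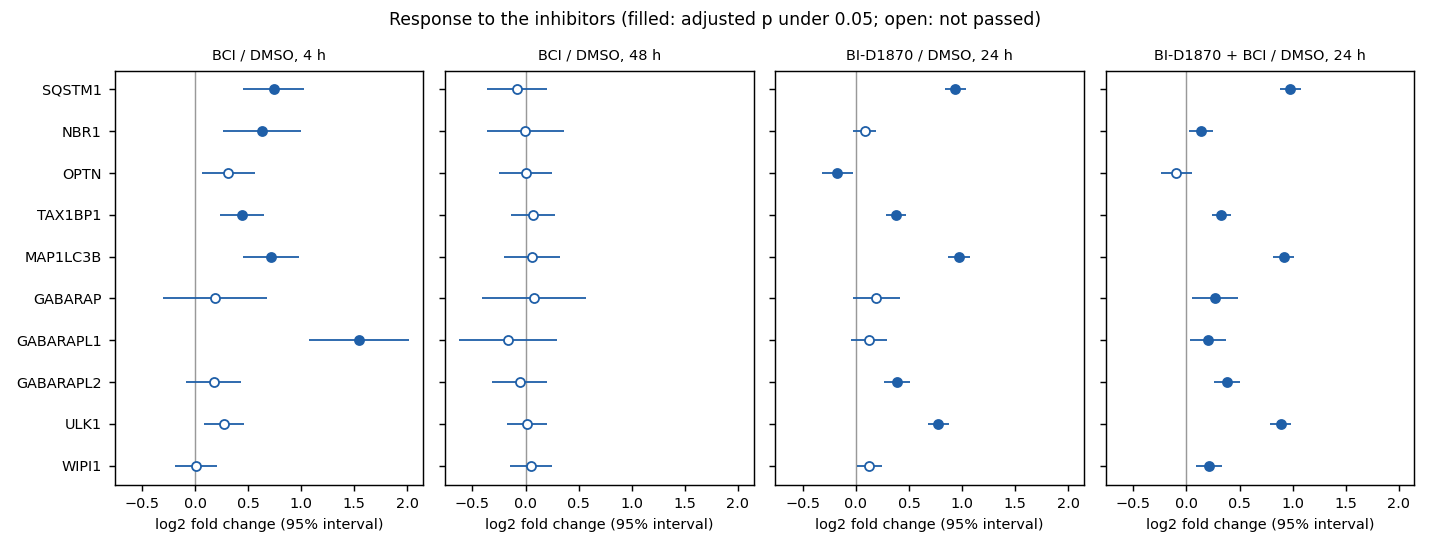
Log2 fold change over DMSO of each gene (points) with its 95% interval (lines) for BCI at 4 h and 48 h, BI-D1870 at 24 h and BI-D1870 with BCI at 24 h, filled where the adjusted p was under 0.05. GABARAPL1 leads with BCI at 4 h at 1.54, while MAP1LC3B, SQSTM1 and ULK1 lead with BI-D1870 at 0.97, 0.94 and 0.78.

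BI-D1870 for 24 h raised 5 of the 10 genes and lowered 1, in a table in which 22.8% of all 21328 genes were called higher and 24.3% lower. MAP1LC3B and SQSTM1 rose 1.96-fold and 1.91-fold and the kinase gene ULK1 1.71-fold, while GABARAPL2 and TAX1BP1 rose 1.31-fold and 1.30-fold. OPTN fell slightly. GABARAPL1, NBR1, GABARAP and WIPI1 did not pass. The median log2 of the 10 genes was 0.28, against -0.01 over all genes. Of the 9 erythroid and megakaryocytic markers, 2 rose and 7 fell, also with BI-D1870 and BCI together. Their summed level was 4266 to 4359 CPM with BI-D1870 and 3436 to 3789 CPM with the pair, against 5213 to 5388 CPM in DMSO. The 11 markers of other cell types summed to 2.66 to 2.68 CPM with BI-D1870 and 3.77 to 3.90 CPM with the pair, against 6.04 to 6.43 CPM in DMSO. The part of these markers in the autophagy genes' levels was not tested.

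MAP1LC3B had 97.7 and 96.4 CPM with BI-D1870, against 50.8 and 48.5 CPM in DMSO (log2 0.97, SE 0.0484, adjusted p = 3.9e-12). SQSTM1 had 124 and 131 CPM with BI-D1870, against 68.6 and 65.0 CPM in DMSO (log2 0.94, SE 0.0481, adjusted p = 5.7e-12). ULK1 had 112 and 107 CPM with BI-D1870, against 62.6 and 64.7 CPM in DMSO (log2 0.78, SE 0.0456, adjusted p = 3.9e-11). In these 3 genes the gap between the groups was many times the spread within them. GABARAPL2 had 61.5 and 66.7 CPM with BI-D1870, against 51.5 and 46.7 CPM in DMSO (log2 0.39, SE 0.0587, adjusted p = 1.7e-05). TAX1BP1 had 130.2 and 126 CPM with BI-D1870, against 100.6 and 96.9 CPM in DMSO (log2 0.38, SE 0.0437, adjusted p = 5.6e-07). These 5 rises passed under every alternative tried and with each of the 6 libraries left out.

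OPTN had 32.0 and 27.8 CPM with BI-D1870, against 34.7 and 32.8 CPM in DMSO, and its call was marginal (log2 -0.18, SE 0.0706, adjusted p = 0.0487). It did not hold with DESeq2 size factors (adjusted p = 0.0702), without the low-count filter (0.105), by DESeq2 (0.123), with only the groups compared (0.0882) or with 4 of the 6 libraries left out. GABARAPL1 had 15.0 and 15.3 CPM with BI-D1870, against 13.8 and 14.0 CPM in DMSO (log2 0.12, 95% interval -0.05 to 0.29, adjusted p = 0.245). NBR1 had 119 and 112 CPM with BI-D1870, against 116 and 103 CPM in DMSO, overlapping groups (log2 0.08, adjusted p = 0.237). BI-D1870 and BCI at 4 h differ in time and table, so their values stand side by side with no test. GABARAPL1 had a log2 of 0.12 with BI-D1870 and 1.54 with BCI at 4 h, and ULK1 had 0.78 and 0.27.

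With BI-D1870 and BCI together at 24 h, 9 of the 10 genes were higher than in DMSO and 0 lower, where 22.6% of all genes were called higher and 24.3% lower. SQSTM1 had 128 and 135.0 CPM with the pair (log2 0.98, SE 0.0479, adjusted p = 2.7e-12), MAP1LC3B 95.7 and 91.5 CPM (log2 0.91, adjusted p = 7.6e-12) and ULK1 118 and 117 CPM (log2 0.89, adjusted p = 5.0e-12). These are the DMSO libraries named above, shared with the BI-D1870 comparison. WIPI1 rose by a small step, with 45.0 and 44.3 CPM with the pair, against 38.0 and 39.0 CPM in DMSO (log2 0.21, SE 0.0564, adjusted p = 0.00406). GABARAP, GABARAPL1 and NBR1 had log2 values of 0.27, 0.20 and 0.14 at adjusted p of 0.0418, 0.0444 and 0.0426, and none of the 3 passed by DESeq2 (0.0827, 0.0817 and 0.0578). With 1 of the 6 libraries left out they passed in 2, 1 and 3 of 6 fits, in that order, and NBR1 had a log2 of 0.05 without replicate 2 of DMSO (adjusted p = 0.549). OPTN did not pass (log2 -0.10, adjusted p = 0.276).

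Set directly against BI-D1870 alone, the pair had none of the 10 genes past the threshold, while 2.22% of all genes were called higher and 2.48% lower. DESeq2 called 0 of the 10 as well, and 1 gene, ULK1, had an interval that left out 0. ULK1 had 118 and 117 CPM with the pair, against 112 and 107 CPM with BI-D1870 (log2 0.11, 95% interval 0.02 to 0.20, adjusted p = 0.198). SQSTM1 had a log2 of 0.04 (95% interval -0.06 to 0.14) and GABARAPL1 of 0.08 (-0.09 to 0.25). The interval of GABARAPL1 lay far under its log2 of 1.54 with BCI alone at 4 h. The 2 values differ in time, table and the presence of BI-D1870, and stand side by side with no test. BCI alone at 24 h was not analysed here.

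Other genes of the pathway came from lists of known roles, and counts for BCI at 4 h stand beside 4.80% of all genes called higher and 5.94% lower. With BCI at 4 h, 1 of 12 genes of the ULK and PI3K initiation complexes rose and 1 fell. The riser was RB1CC1, the scaffold FIP200 of the ULK complex, with 107 CPM with BCI and 65.2 CPM in DMSO (log2 0.71, SE 0.101, adjusted p = 0.00234). Of 11 genes listed for ATG8 conjugation to lipid, among them those of the ATG4 proteases that trim ATG8 proteins, 0 passed in either direction. MAP1LC3A, the 1 further ATG8 gene with enough counts, did not pass (log2 0.22). Of 13 other receptor genes 3 rose, among them CALCOCO2, the receptor NDP52 (log2 0.57, adjusted p = 0.00162), and CCPG1, a receptor for endoplasmic reticulum (log2 0.66, adjusted p = 0.00251). TFE3, a transcription factor of lysosome and autophagy genes, rose (log2 0.58, adjusted p = 0.0126), with 2 of 14 regulators and 2 of 18 lysosome genes higher and 0 lower.

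NRF2, the transcription factor that KEAP1 holds back, is known to act on SQSTM1 as on the antioxidant genes. Of 14 NRF2 target genes tested, 8 rose with BCI at 4 h and 0 fell, where 4.80% of all genes were called higher and 5.94% lower, and their median log2 was 1.25. HMOX1, the haem-degrading enzyme, led them with a mean of 1274 CPM with BCI and 9.64 CPM in DMSO (log2 7.05, SE 0.208, adjusted p = 6.9e-07). At 48 h 0 of 14 passed, where 0% of all genes were called in either direction. For 8 the response was called lower at 48 h than at 4 h, as for 1.37% of all genes, and for 0 higher. With BI-D1870, 6 of the 14 rose and 3 fell, where 22.8% of all genes were called higher and 24.3% lower. The median log2 of the list was 0.27, with FTH1 at 0.69 and SLC7A11 at -0.60. SQSTM1 had a log2 of 0.94 with BI-D1870 and 0.74 with BCI at 4 h, in different tables. Whether NRF2 acted on the autophagy genes was not tested.

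With BI-D1870, 11 of 18 lysosome genes rose and 1 fell, and the median log2 of the list was 0.22. NEU1, the lysosomal sialidase, had 70.1 CPM with BI-D1870 and 23.3 CPM in DMSO (log2 1.59, SE 0.0621, adjusted p = 1.1e-13), and ATP6V0D1, a subunit of the proton pump, a log2 of 0.59. Of the 12 initiation genes 7 rose and 2 fell, with ATG14 at log2 0.42 and UVRAG at -0.35, both partners in PI3-kinase complexes. The lipid transfer genes ATG2A and ATG2B had log2 values of 0.51 and 0.50 (adjusted p = 2.0e-08 and 1.0e-06). The conjugation genes divided, with 4 of 11 higher and 3 lower. ATG4B, the protease that trims ATG8 proteins, rose (log2 0.56), and its relative ATG4C fell (log2 -0.54). Other receptor genes divided as well, with 4 of 13 higher and 5 lower. TOLLIP rose (log2 0.94) while BNIP3, a receptor for mitochondria that hypoxia induces, fell (log2 -1.37, adjusted p = 1.1e-11). Such counts stand in a table where 22.8% of all genes were called higher and 24.3% lower.

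Adding BCI to BI-D1870 raised ATG4B further, to 117 CPM with the pair against 94.0 CPM with BI-D1870 (log2 0.31, SE 0.0530, adjusted p = 0.00114). The protease gene CTSD rose too, with 75.2 CPM with the pair and 50.1 CPM with BI-D1870 (log2 0.59, adjusted p = 1.2e-06). In that comparison 3 of 18 lysosome genes and 2 of 11 conjugation genes were higher and 0 lower, where 2.22% of all genes were called higher and 2.48% lower. The antioxidant gene NQO1 rose (log2 1.42) and HMOX1 fell (log2 -1.12), with 3 of 14 NRF2 targets higher and 3 lower.

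**Figure D3:**
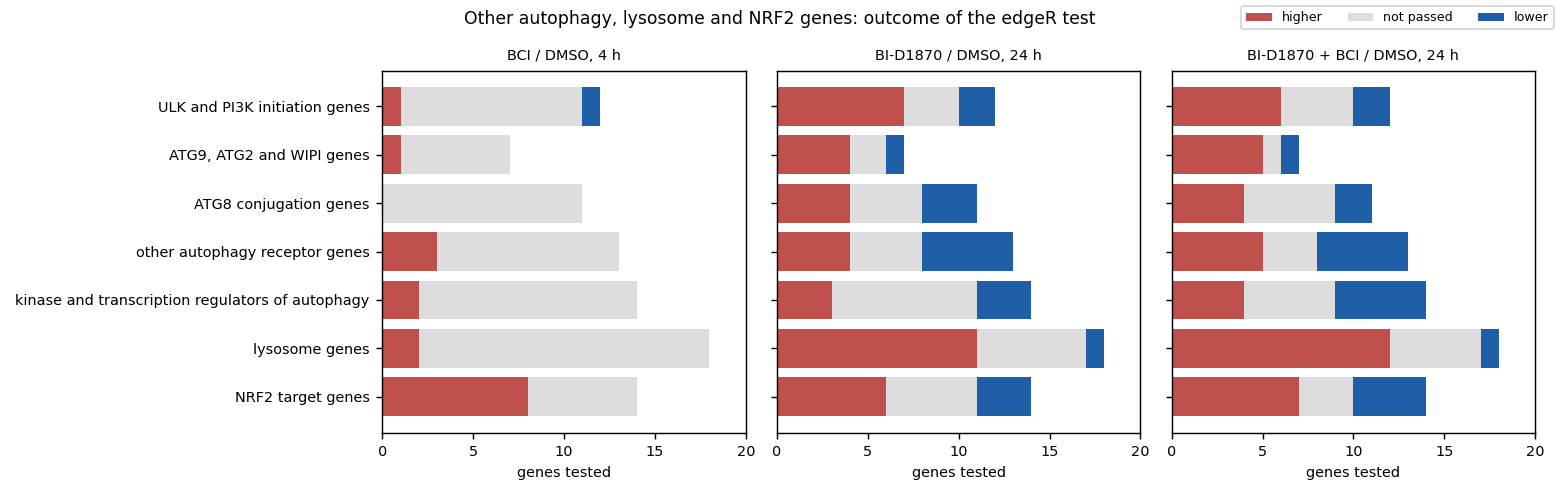
Number of genes of each pathway list (horizontal axis, genes tested) called higher (red), not passed (grey) or called lower (blue) against DMSO, for BCI at 4 h, BI-D1870 and BI-D1870 with BCI at 24 h. With BCI at 4 h 8 of 14 NRF2 targets and 0 of 11 conjugation genes rose, while with BI-D1870 11 of 18 lysosome genes rose.

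In FedP cells 3 of the 10 genes were lower than in parental cells and 0 higher, where 3.84% of all 15924 genes were called higher and 2.79% lower. The genes were the receptors OPTN and NBR1 and the ATG8 gene MAP1LC3B. OPTN had 81.2 and 81.4 CPM in FedP cells, against 145 and 179 CPM in parental cells (log2 -0.99, SE 0.170, adjusted p = 0.0263). NBR1 had 132 and 139 CPM in FedP cells, against 216 and 298 CPM in parental cells (log2 -0.93, SE 0.196, adjusted p = 0.0469). MAP1LC3B had 36.6 and 37.1 CPM in FedP cells, against 60.7 and 63.0 CPM in parental cells (log2 -0.75, SE 0.145, adjusted p = 0.0376). The groups did not overlap in any of the 3. With only the FedP and parental libraries fitted, none of the 3 passed (adjusted p = 0.0669, 0.101 and 0.0763, in the order above), nor did they without either RuxP or either FedP library.

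The other genes did not pass in FedP cells. The kinase gene ULK1 had 55.3 and 49.9 CPM in FedP cells, against 41.3 and 18.4 CPM in parental cells, both FedP libraries above both parental ones (log2 0.82, 95% interval -0.19 to 1.82). WIPI1 had 66.9 and 66.1 CPM in FedP cells, against 54.3 and 43.5 CPM in parental cells (log2 0.44, adjusted p = 0.208). GABARAPL1 had 18.3 and 18.5 CPM in FedP cells, against 30.5 and 24.8 CPM in parental cells (log2 -0.59, adjusted p = 0.117), and it was called lower by DESeq2 (adjusted p = 0.0351). SQSTM1 had 60.3 and 57.5 CPM in FedP cells, within the range of 98.8 and 55.9 CPM in parental cells. Its log2 of -0.39 (adjusted p = 0.434) was 0.08 without replicate 1 of parental cells and -0.74 without replicate 2. Without replicate 1 of parental cells, ULK1, WIPI1 and TAX1BP1 had log2 values of 1.515, 0.612 and -1.093, against 0.82, 0.44 and -0.76 in the main fit.

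RuxP cells had 0 of the 10 genes past the threshold by edgeR, where 4.28% of all genes were called higher and 2.17% lower, and 3800 genes had an unadjusted p under 0.05. Of the 10 values 9 were below 0, with a median log2 of -0.57 against -0.04 over all genes. SQSTM1 had 31.5 and 38.6 CPM in RuxP cells, against 98.8 and 55.9 CPM in parental cells (log2 -1.14, SE 0.287, adjusted p = 0.0723). OPTN had 102.6 and 92.1 CPM in RuxP cells, against 145 and 179 CPM in parental cells (log2 -0.74, adjusted p = 0.0597). NBR1 had 154 and 138 CPM in RuxP cells, against 216 and 298 CPM in parental cells (log2 -0.82, adjusted p = 0.0639). Groups did not overlap in these 3, and DESeq2 called 5 of the 10 lower, these and MAP1LC3B and GABARAPL1 (adjusted p = 0.00192, 0.00567, 0.00593, 0.0314 and 0.0419). Without the low-count filter 3 passed. Of all genes DESeq2 called 2469 and the fit without the filter 1836, against 1026 in the main fit, so the shares above do not stand beside these counts. With 1 library left out the log2 of SQSTM1 ran from -1.51 to -0.65. TAX1BP1 had 189 and 138 CPM in RuxP cells, against 110.4 and 188 CPM in parental cells, with groups that overlapped.

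Between FedP and RuxP cells none of the 10 genes passed by edgeR, where 0.232% of all genes were called higher and 1.16% lower in FedP and 5103 had an unadjusted p under 0.05. WIPI1 had 66.9 and 66.1 CPM in FedP cells, against 33.0 and 40.8 CPM in RuxP cells (log2 0.85, SE 0.187, adjusted p = 0.0826). ULK1 had 55.3 and 49.9 CPM in FedP cells, against 15.5 and 25.6 CPM in RuxP cells (log2 1.35, SE 0.418, adjusted p = 0.109). GABARAP, with 4.42 and 4.67 CPM in FedP cells against 0.925 and 2.46 CPM in RuxP cells, had a log2 of 1.42 (SE 0.475, adjusted p = 0.118). TAX1BP1 went the other way, with 85.5 and 91.1 CPM in FedP cells, against 189 and 138 CPM in RuxP cells (log2 -0.89, adjusted p = 0.115). In these 4 the groups did not overlap, and by DESeq2 all 4 passed (adjusted p = 0.00235, 0.00726, 0.0298 and 0.0198). The same 4 passed without the low-count filter. With only these groups compared, WIPI1, ULK1, TAX1BP1 and SQSTM1 passed, and GABARAP did not. These fits also called more of all genes, so the shares above do not stand beside their counts. DESeq2 called 3680 genes, the fit without the filter 2886 and that of only these groups 5783, against 222 in the main fit. Of the 9 erythroid and megakaryocytic markers, 1 was called higher and 0 lower in FedP than in RuxP cells, with a summed level of 3363 to 3447 CPM in FedP cells, 1822 to 2051 CPM in RuxP cells and 3007 to 4221 CPM in parental cells. Their part in the autophagy genes' levels was not tested.

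Few genes of the pathway lists were called in the persistent lines. Of all genes, 3.84% were called higher and 2.79% lower in FedP cells and 4.28% higher and 2.17% lower in RuxP cells. In each line 0 of 12 initiation, 0 of 7 ATG9, ATG2 and WIPI, 0 of 11 conjugation and 0 of 14 NRF2 target genes passed. Of 18 lysosome genes 0 were higher and 1 lower in each line. Of 14 regulators 1 was higher and 1 lower in FedP cells, and 1 higher and 0 lower in RuxP cells. Of 14 other receptor genes 0 passed in FedP cells and 1 was lower in RuxP cells. CTSA, a lysosomal protease that protects NEU1, had 50.2 CPM in FedP cells and 72.7 CPM in RuxP cells, against 219.7 CPM in parental cells (log2 -2.13 and -1.60, adjusted p = 0.00876 and 0.0164). DEPTOR, an inhibitor of the kinase mTOR, had 14.8 CPM in FedP cells and 18.3 CPM in RuxP cells, against 3.78 CPM in parental cells (log2 1.97 and 2.28, adjusted p = 0.0152 and 0.00907). The receptor gene CALCOCO1 was lower in RuxP cells (log2 -1.01, adjusted p = 0.0187) and FOXO3, a transcription factor of autophagy genes, in FedP cells (log2 -0.75, adjusted p = 0.0326).

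**Figure D4:**
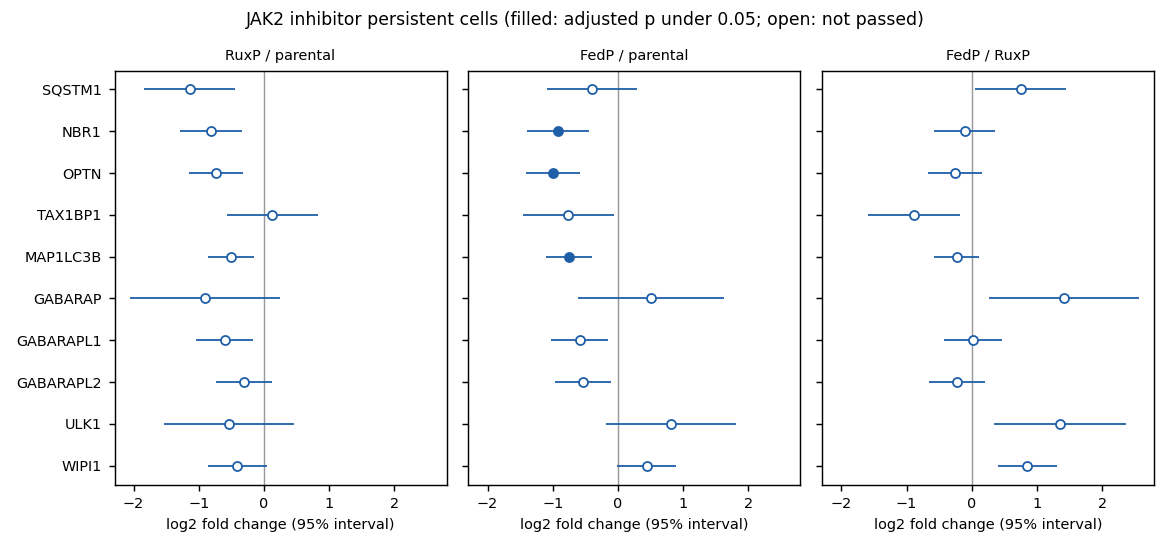
Log2 fold change of each gene (points) with its 95% interval (lines) for RuxP against parental, FedP against parental and FedP against RuxP cells, filled where the adjusted p was under 0.05. In FedP against parental cells OPTN, NBR1 and MAP1LC3B are filled at -0.99, -0.93 and -0.75, and intervals are wider than in the inhibitor tables.

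Among 9878 genes tested in all 3 tables with a mean of at least 4 CPM in each, patterns over the 10 groups were compared by the root mean square difference of group mean log2 CPM, each table centred on its own mean. The nearest to SQSTM1 were KIAA0513, KCTD21 and ITPKC, at 0.113, 0.115 and 0.141, where SQSTM1's own spread was 0.404. The nearest to MAP1LC3B were HEATR5A, PHTF1 and MERTK, at 0.0976, 0.120 and 0.149. For GABARAPL1 they were FBXO30, MXD1 and ATP2C1, at 0.123, 0.144 and 0.148. ULK1 was nearest to ARFGAP1, QSOX1 and UBTD1, at 0.0914, 0.0966 and 0.101. None of these was another of the 10 genes, and GABARAP fell under the minimum level.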

How the data were processed

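RNA of HEL cells was sequenced on a NovaSeq, per the labels. Reads were aligned with STAR 2.5.1a to GRCh38, and bcl2fastq and edgeR were used, per the submitters' processing notes. The authors deposited 3 tables of unnormalised counts, 1 row a gene, per the labels. Not given in the sources used here are annotation, counter, strand setting and kit. Even values made up 69.4%, 66.9% and 66.8% of counts from 1 to 20, so a fragment may stand for 2 counts. Lines that repeat a gene identifier (116, 116 and 130) were dropped, and the first line of each gene was kept.

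Each table was fitted separately in R 4.3.3 with edgeR 4.0.16, with filterByExpr by group, TMM scaling, all groups in 1 quasi-likelihood model and no replicate block. Genes were called at a Benjamini-Hochberg adjusted p under 0.05 over all genes tested, two-sided. A standard error is the size of the log2 change divided by the square root of F, and intervals are 95%. Group means carry the SD of 2 libraries, and intervals cover the spread between libraries only. The 10 genes and the pathway lists were chosen with earlier results of these data known, so counts over them are descriptions. From each list at most the 2 largest called changes per comparison with a mean of at least 4 CPM are named. CPM per kb use the union of GENCODE 29 exons. Promoters are from RefSeq, where all 10 genes matched. The code was tested on simulated counts. Alternatives were DESeq2 size factors, no low-count filter, DESeq2 1.42.0, only the groups compared, a replicate block and each library left out.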

Additional observations from a re-analysis of the deposited data

Results flagged for a closer look

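The response to BCI differed between 48 h and 4 h for 2 of the 10 genes, by a test of the difference itself (edgeR, interaction of treatment and time). For GABARAPL1 the response at 48 h minus that at 4 h was -1.708 on the log2 scale (SE 0.293, adjusted p = 0.0157). For SQSTM1 it was -0.8195 (SE 0.180, adjusted p = 0.041). The labelled 48 h is headed 24h in the deposited table. Groups of 2 libraries were too small for a search for single outlying libraries.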

How the results depend on the processing

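Counts of the 10 genes past the threshold for BI-D1870, the pair and the pair against BI-D1870, and for BCI at 48 h, stayed within 1.5 times the reported count or at 0 under all alternatives. For BCI at 4 h the count of 5 was 7 with only its groups compared and ran from 1 to 7 with 1 library left out. The count of 2 for the difference between the times was 4 without the low-count filter, 3 by DESeq2 and 0 to 5 with a library left out. For DMSO at 48 h against 4 h, 3 became 5 without the filter and 0 to 3 with a library left out. For RuxP, 0 became 3 without the filter, 5 by DESeq2 and 0 to 5 with a library left out. For FedP, 3 became 4 by DESeq2, 0 with only the groups compared and 0 to 6 with a library left out. For FedP against RuxP, 0 became 4 without the filter, by DESeq2 and with only the groups compared, and 0 to 4 with a library left out. The cause was not tested, beyond fewer libraries in the fits that leave some out. Under the replicate block the FedP count was 0 against 3, with 3 calls lost and 3 gained over 100 gene results (ULK1 with BCI at 4 h, adjusted p = 0.0468, MAP1LC3B for the difference between the times, 0.0339, and OPTN in DMSO at 48 h against 4 h, 0.0271). Replicate numbers are not said to pair libraries, and deviations of libraries with the same number correlated at -0.0446 to 0.316 in the BCI table, -0.0289 to 0.119 in the BI-D1870 table and -0.222 to 0.0456 in the persistent table. No called gene reversed under any alternative. Counts over all genes moved more: BCI at 4 h called 2354 genes, 5691 with only its groups and 555 to 3241 with a library left out. The difference called 757, and 1658 without the filter, 1166 with the block and 1440 by DESeq2. RuxP called 1026, and 1836 without the filter, 324 with the block, 2469 by DESeq2 and 419 with its groups only. FedP called 1055, and 1818, 272, 2573 and 568 in the same order. FedP against RuxP called 222, and 2886, 0, 3680 and 5783. BCI at 48 h called 0, and 27 without the filter. The median standard error of the 10 genes was 0.0551 for BI-D1870, 0.117 for BCI at 4 h and 0.191 for FedP and RuxP, which limits the changes that each table can show.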
